A study of Mus musculus with 24 samples.

Results

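Oligodendrocyte precursor lineage genes were followed in the brains of Cdr1as-knockout mice. They are the 6 genes Olig1, Olig2, Sox10, Pdgfra, Cspg4 and Gpr17, matched by symbol to their Ensembl gene IDs in all 24 count tables, of 37621 features in all. All 6 were found in every table and all 6 passed the filter on low counts. The study measured poly(A)-selected RNA of dissected brain regions by sequencing with a strand-keeping mRNA kit. It held 8 groups of 3 libraries each: Cdr1as knockout and wild type in the cerebellum, the cortex, the hippocampus and the olfactory bulb, all from C57BL/6 mice. Age and sex are not given in the labels. Cdr1as is a circular RNA of brain known for its many binding sites for the microRNA miR-7. Nothing in the labels ties replicates to separate animals, so p-values measure the spread between these libraries, which may be technical.

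Oligodendrocyte precursors are dividing glial cells spread through the adult brain, and they give rise to the oligodendrocytes that wrap axons in myelin. Olig1 and Olig2 are basic helix-loop-helix transcription factors. Olig2 is needed to set up the lineage, and Olig1 is known mainly for the maturation and repair of oligodendrocytes. Sox10 is an HMG-box transcription factor kept from the precursor to the myelinating cell, where it acts on myelin genes. Pdgfra is the receptor for platelet-derived growth factor A, which drives precursor division, and it is lost as the cells mature. Cspg4 encodes the NG2 proteoglycan on the precursor surface and is also a pericyte gene, while Pdgfra is also expressed by fibroblasts of the meninges and vessels. Gpr17 is a G protein-coupled receptor of committed precursors that is switched off before myelination is complete. In bulk tissue, fewer cells of a type and less RNA per cell cannot be told apart.

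The libraries held 21.1 M to 40.5 M gene counts, and in the olfactory bulb the knockout libraries, at 33.8 M to 40.5 M, were deeper than the wild-type ones at 21.1 M to 27.2 M. The feature that the authors added for the deleted locus, Cdr1asG, had 4 to 43 counts in the 12 knockout libraries and 61 to 973 in the 12 wild-type libraries. Choroid plexus markers, 10 genes summed, stood at 376 to 1317 CPM (counts scaled to a fixed total per library, with TMM factors) in knockout cerebellum against 29.7 to 2390 CPM in wild-type cerebellum, and at 41.0 to 52.5 CPM in knockout hippocampus against 42.3 to 3330 CPM in wild-type hippocampus. The libraries with more than 1000 CPM of them, cerebellum knockout replicate 2, cerebellum wild-type replicates 1 and 2 and hippocampus wild-type replicates 1 and 3, are called choroid-plexus-rich. Olfactory bulb markers, 3 genes summed, reached 61.5 to 92.9 CPM in knockout cerebellum against 26.2 to 35.3 CPM in wild-type cerebellum, and 1.58 to 2.45 CPM in knockout cortex against 5.48 to 10.4 CPM in wild-type cortex. Only 2 of these genes could be tested in the cerebellum, where 1 was higher and 1 lower in the knockout, so the sum there is no shift of all markers. In the cortex all 3 were lower in the knockout. Cerebellum markers summed to at least 1147 CPM in cerebellum and at most 12.1 CPM in any other library. Striatum markers, 3 genes summed, stood at 237 to 405 CPM in knockout and 220 to 395 CPM in wild-type cortex, and at most 20.1 CPM in any other library. Thalamus markers, 3 genes summed, stood at 79.3 to 161 CPM in knockout and 60.1 to 85.7 CPM in wild-type hippocampus. In the cortex they stood at 94.5 to 125 CPM in the knockout and 96.6 to 186 CPM in the wild type. The part of these marker differences in the results that follow was not tested, except where values without the choroid-plexus-rich libraries are given.

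Olig2 was the member that the data turned on. On the GRCm38 assembly it lies on chromosome 16 at 91225457 to 91228677 on the plus strand, and Olig1 lies on the same strand at 91269772 to 91271933, with 41094 bases and 1 annotated gene, Gm37016, between them. The other members are elsewhere: Pdgfra on chromosome 5 at 75152292 to 75198215 (plus), Cspg4 on chromosome 9 at 56865033 to 56899870 (plus), Sox10 on chromosome 15 at 79154908 to 79165240 (minus), and Gpr17 on a further chromosome. The reads were aligned to mm9, so these positions locate the genes and were not used for counting. The RefSeq promoter of Olig2 (GRCm38.p6, chr16:91225300-91225599, plus strand, 250 bases before to 50 after the RefSeq start) is shown because Olig2 was the only member to pass the test below. The gene positions above come from another annotation, GENCODE, and the RefSeq start lies downstream of the gene start given there. Capitals mark CCAAT, read on either strand, and TATAAAA.

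Olig2 promoter: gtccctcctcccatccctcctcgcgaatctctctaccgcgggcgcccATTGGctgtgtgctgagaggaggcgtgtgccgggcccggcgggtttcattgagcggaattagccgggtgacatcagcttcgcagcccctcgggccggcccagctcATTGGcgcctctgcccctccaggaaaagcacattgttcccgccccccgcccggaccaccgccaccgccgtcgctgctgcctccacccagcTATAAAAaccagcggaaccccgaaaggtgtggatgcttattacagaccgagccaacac

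CCAAT occurred at 2 places in this window, and at least 1 such match was present in 37.4% of 32851 mouse promoters of the same length. TATAAAA occurred once, a motif found in 5.48% of those promoters. The promoters of Pdgfra and Cspg4 held neither motif. ACAAT, the core letters of SOX sites, occurred once each in the Olig2 and Cspg4 windows and was present in 31.0% of promoters. The E-box CANNTG, bound by helix-loop-helix factors, had 0 matches in the Olig2 and Cspg4 windows and 2 in that of Pdgfra, against 72.3% of promoters with at least 1. All motifs were searched on both strands, and a match is a description of the letters and not a site.

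Because Cdr1as is known for miR-7, the 3′ untranslated regions of the members were searched for the miR-7 seed match. The mature miR-7 forms from RefSeq (GRCm38.p6) share the seed, bases 2 to 8, in capitals.
mmu-miR-7a-5p: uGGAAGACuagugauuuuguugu
mmu-miR-7b-5p: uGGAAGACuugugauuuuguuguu
Of the 6 members, Pdgfra alone held the reverse complement of this seed, GTCTTCC, with 1 match at bases 2999 to 3005 of an untranslated region of 3115 bases. In capitals, with its neighbouring bases, it reads as follows.
Pdgfra site: ccataggaaggGTCTTCCaatacaagatgg
A match was present in 24.9% of 2271 genes with an untranslated region of like length and in 12.3% of all 19757 genes searched. Olig1, Olig2, Cspg4, Sox10 and Gpr17 had 0 matches to these 7 letters.

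How strongly was each gene expressed? Compared per length, as CPM per kilobase of the longest protein-coding transcript and averaged over all 24 libraries, Olig1 stood highest at 39.9, followed by Sox10 at 14.1, Gpr17 at 13.1, Pdgfra at 8.08, Olig2 at 8.06 and Cspg4 at 2.73. Sox10 and Gpr17 lay within each other's range over libraries (8.76 to 23.2 and 5.24 to 22.2 CPM per kilobase), and so did Pdgfra and Olig2 (3.62 to 13.2 and 4.80 to 12.5). Olig1 was the highest and Cspg4 the lowest of the members in all 8 groups. In the cerebellum, the hippocampus and the olfactory bulb the order of the means of Olig2 and its neighbours differed by genotype. Per kilobase, Olig2 averaged 5.06 ± 0.27 CPM in knockout cerebellum, under Gpr17 at 6.62 ± 0.79, whereas in wild-type cerebellum Olig2 averaged 7.14 ± 1.45 and Gpr17 6.97 ± 2.22 (SD, n = 3 each), within their spread. In knockout hippocampus Olig2 averaged 8.25 ± 0.99 and Pdgfra 9.17 ± 0.90 CPM per kilobase. In wild-type hippocampus they averaged 11.6 ± 0.93 and 11.3 ± 2.06 (SD, n = 3 each). Both hippocampus pairs were within their spread. In knockout bulb Olig2, at 6.18 ± 0.20 CPM per kilobase, and Pdgfra, at 6.51 ± 1.37, were within their spread, and in wild-type bulb Olig2 stood at 8.57 ± 0.59 above Pdgfra at 6.36 ± 0.75 (SD, n = 3 each). Raw counts behind these levels were 351 to 1075 per library for Olig2, 363 to 1037 for Cspg4 and at least 681 for the other members, and counting error is part of the spread between libraries, most of all for Olig2 and Cspg4 in the cerebellum.

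**Figure D1:**
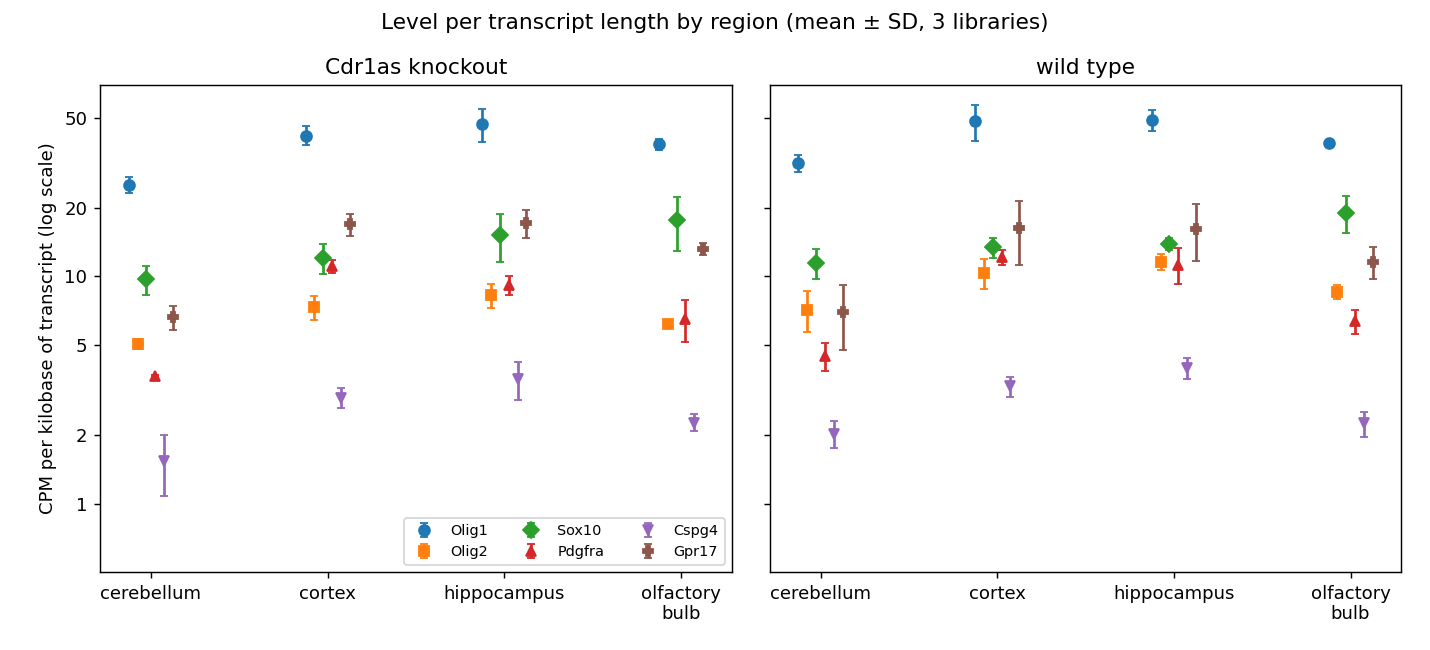
CPM per kilobase of the longest protein-coding transcript (y, log scale) for the 6 genes in the 4 regions (x), Cdr1as knockout on the left and wild type on the right; points are means and bars SD of 3 libraries. Olig1 is the highest and Cspg4 the lowest of the 6 in every group, and all 6 have their lowest level in the cerebellum.

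How did the lineage factor Olig2 differ between knockout and wild type? It was lower in the knockout in all 4 regions, at 71.1% of the wild-type level on average. In the cerebellum Olig2 had 13.5, 12.7 and 12.2 CPM in the knockout libraries and 22.2, 15.2 and 16.7 CPM in the wild-type libraries. In the cortex it had 19.9, 16.0 and 19.6 CPM in the knockout and 29.1, 21.8 and 27.7 CPM in the wild type. In either region all knockout libraries lay below all wild-type ones, and the closest values were those of knockout replicate 1 and wild-type replicate 2. Such separation, with the knockout lower, was seen in 5.01% of 17266 genes in the cerebellum and 4.29% in the cortex. In the hippocampus the knockout libraries had 23.8, 19.3 and 19.5 CPM of Olig2, against 31.7, 27.0 and 29.6 CPM in the wild type. In the olfactory bulb they had 16.0, 15.1 and 15.8 CPM, against 23.4, 20.8 and 20.8 CPM in the wild type. Here too the groups did not overlap, as in 5.09% of genes in the hippocampus and 4.33% in the bulb, and the knockout bulb libraries lay within 1 CPM of each other. Groups with all knockout libraries below all wild-type ones in all 4 regions were seen in 20 of 17266 genes (0.116%), and lower values in all 12 pairs of equal region and replicate number in 93 (0.539%).

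Averaged over the regions in edgeR, the log2 fold change of Olig2, knockout over wild type, was -0.49 (SE 0.067, edgeR quasi-likelihood adjusted p = 0.000212). Of 17266 genes tested, 462 passed an adjusted p of 0.05 in this comparison, which is 2.68%, and 149 of them (0.863%) were lower in the knockout. Leaving out any 1 of the 24 libraries kept Olig2 between -0.52 and -0.45 (edgeR adjusted p = 0.000139 to 0.000763). Leaving out a whole region kept it between -0.50 and -0.49 (highest edgeR adjusted p = 0.00643). When the 5 choroid-plexus-rich libraries were left out, a choice made after seeing the data, it was -0.43 (edgeR adjusted p = 0.0166).

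The average counts every library as independent. The labels do not say whether libraries of equal genotype and number come from the same animal in the 4 regions. Over all genes, deviations from the group mean correlated between such libraries of different regions, with a median r of 0.25 over 36 pairs. For unequal numbers of the same genotype the median was -0.14 over 72 pairs. The correlation estimated in limma was 0.22, so p-values that take all libraries as independent may be too small. With 1 mean log2 CPM per genotype and number, Olig2 stood at 4.16, 3.96 and 4.04 in the knockout and at 4.72, 4.38 and 4.53 in the wild type. These groups did not overlap either, and their difference of -0.49 did not pass in limma (adjusted p = 0.429; 0.0128 with the replicate number as a block). With libraries of equal genotype and number treated as correlated, Olig2 was at -0.48 (limma adjusted p = 0.00338).

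Region by region, each on its own 6 libraries, the log2 fold change of Olig2 was -0.50 (SE 0.15) in the cerebellum, -0.51 (SE 0.14) in the cortex, -0.50 (SE 0.11) in the hippocampus and -0.49 (SE 0.087) in the olfactory bulb. When 1 of the 6 libraries was left out, the cerebellum value ran from -0.61 to -0.32, the cortex value from -0.62 to -0.42, that of the hippocampus from -0.59 to -0.44 and that of the bulb from -0.53 to -0.41. The -0.32 was the cerebellum value without wild-type replicate 1. None of these passed by itself (edgeR adjusted p = 0.738, 0.531, 0.954 and 0.583). Unadjusted, the edgeR p-values were 0.0107, 0.00519, 0.00233 and 0.000988. Few genes of any kind passed within a region: 0 of 15723 (0.0%) in the cerebellum, 6 of 15834 (0.0379%) in the cortex, 0 of 15572 (0.0%) in the hippocampus and 0 of 16131 (0.0%) in the bulb, with 862, 665, 804 and 859 genes at an unadjusted p under 0.05. In libraries simulated at these depths, 4.04% of genes with a log2 change of 0.5 were recovered in the cerebellum alone and 87% in the average over regions. The simulated libraries were drawn independently, without the correlation of equal numbers across regions, so the 87% may be too high for these data. With the replicate number as a block, Olig2 passed in the cortex (edgeR adjusted p = 0.0343), as did 0.695% of all genes, 0.139% of all genes being lower in the knockout, although equal numbers were not taken as pairs in the cortex (correlations of 0.338, 0.553 and -0.071). With DESeq2 it passed in the bulb (adjusted p = 0.0201), as did 0.409% of all genes, 0.0807% being lower. The difference of the Olig2 effect between regions was far from the threshold (edgeR unadjusted p = 0.998).

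**Figure D2:**
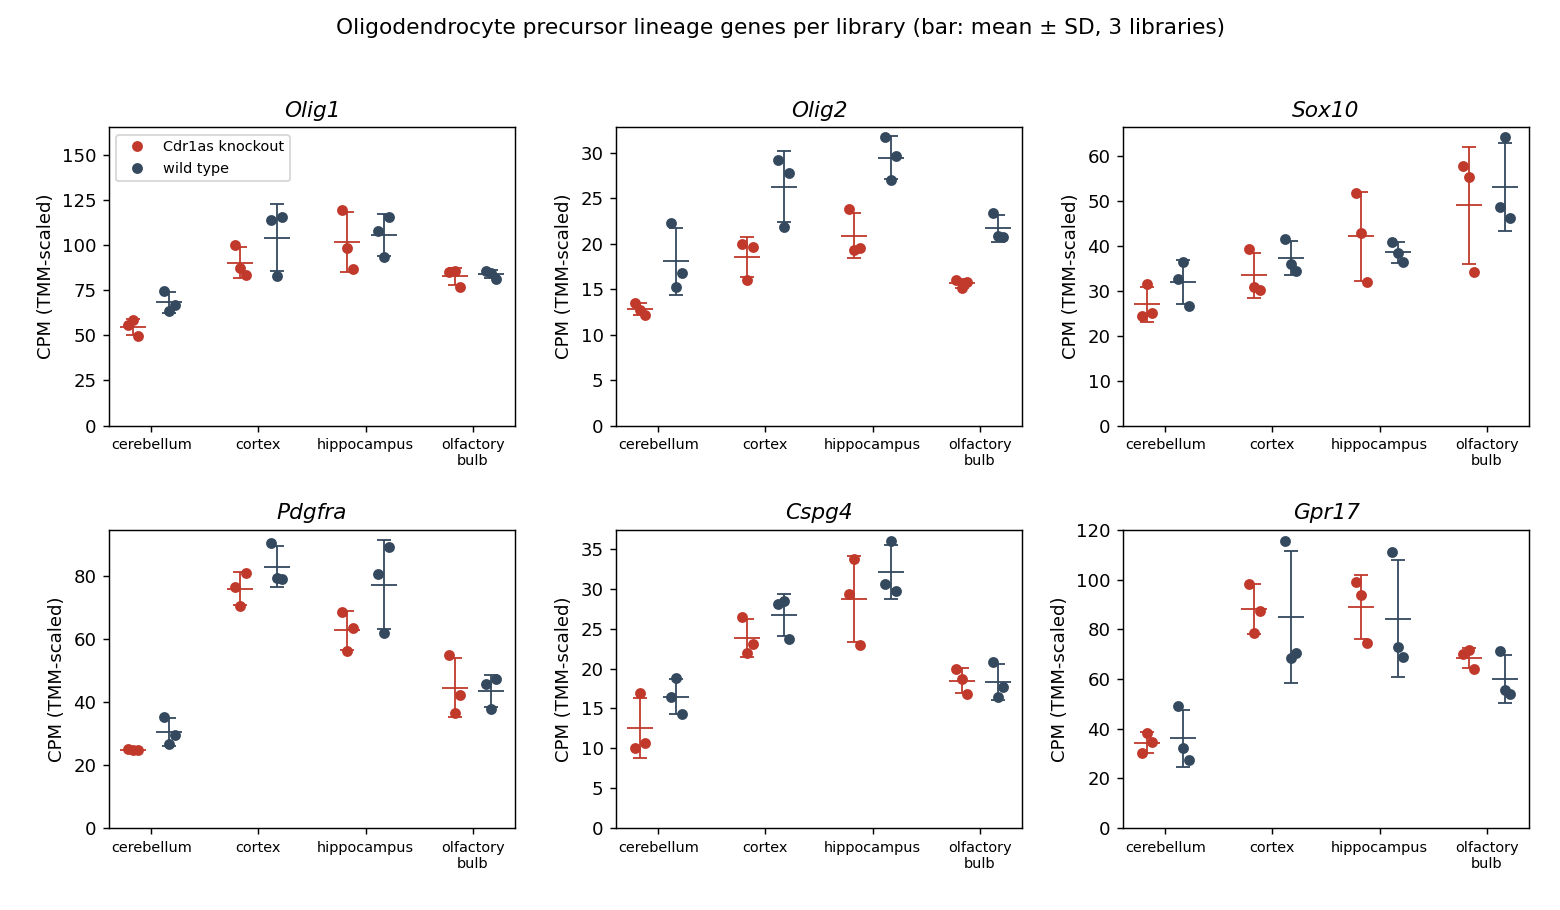
TMM-scaled CPM (y) of each gene in every library, by region (x), with Cdr1as knockout in red left of wild type in blue; bars give the mean and SD of 3 libraries. For Olig2 the knockout points lie under all wild-type points in every region, at 12.2 to 23.8 CPM against 15.2 to 31.7 CPM, while for Cspg4, Sox10 and Gpr17 the groups overlap in each region.

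None of the other 5 members passed in the average over the regions. Olig1, the neighbour of Olig2, was at -0.15 (SE 0.063, edgeR adjusted p = 0.264), or 90.1% of the wild-type level. In the cerebellum it had 55.8, 58.3 and 49.7 CPM in the knockout and 74.5, 63.1 and 66.9 CPM in the wild type. The groups did not overlap there, as in 5.01% of 17266 genes with the knockout lower. In the olfactory bulb Olig1 had 85.1, 85.6 and 76.9 CPM in the knockout against 85.4, 84.3 and 81.3 CPM in the wild type, which overlapped. Cortex and hippocampus overlapped as well, at 83.4 to 99.9 CPM and 86.6 to 119 CPM in the knockout against 82.9 to 115.4 CPM and 93.2 to 115.6 CPM in the wild type. By region, the log2 fold change of Olig1 was -0.33 (SE 0.091), -0.21 (SE 0.14), -0.060 (SE 0.13) and -0.037 (SE 0.064), in the order cerebellum, cortex, hippocampus and bulb. The spread of these values was within error (edgeR interaction, unadjusted p = 0.331).

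Sox10 stood at -0.097 (SE 0.097, edgeR adjusted p = 0.766). Its groups overlapped in every region, and its libraries were the most scattered in the bulb, with 57.8, 55.4 and 34.2 CPM in the knockout and 48.8, 64.4 and 46.3 CPM in the wild type. In both genotypes of the bulb, replicate 3 was the lowest. In the hippocampus it had 51.8, 42.8 and 32.0 CPM in the knockout and 40.9, 38.5 and 36.4 CPM in the wild type, so the knockout libraries spread on both sides of the wild-type ones. By region its log2 fold change was -0.25 (SE 0.13), -0.16 (SE 0.13), 0.12 (SE 0.16) and -0.13 (SE 0.21) in the same order.

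Pdgfra, the growth factor receptor, was at -0.17 (SE 0.072, edgeR adjusted p = 0.272), or 88.9% of the wild-type level. It was lower in 10 of 12 equal-numbered pairs, but the share of all genes at this count was not taken. The 12 include the cortex, where equal numbers were not taken as pairs. In the cerebellum Pdgfra had 25.1, 24.7 and 24.9 CPM in the knockout and 35.1, 26.6 and 29.6 CPM in the wild type. These did not overlap, as in 5.01% of 17266 genes there, and the knockout libraries were almost identical. In the hippocampus it had 68.4, 56.2 and 63.4 CPM in the knockout against 80.4, 61.7 and 89.2 CPM in the wild type, where wild-type replicate 2 fell among the knockout values. In the bulb it had 54.8, 36.5 and 42.2 CPM in the knockout against 45.6, 37.6 and 47.1 CPM in the wild type, which overlapped. By region the log2 fold change of Pdgfra was -0.29 (SE 0.11), -0.14 (SE 0.092), -0.30 (SE 0.14) and 0.018 (SE 0.18). In the hippocampus it was 0.025 without wild-type replicates 1 and 3, which were rich in choroid plexus markers. That left wild-type replicate 2 alone, the lowest wild-type library of Pdgfra there, so the part of the choroid plexus cannot be told from this value.

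Cspg4 was at -0.18 (SE 0.086, edgeR adjusted p = 0.365), or 88.4% of the wild-type level. It was lower in 11 of 12 equal-numbered pairs, again with no share of all genes taken and with the cortex among the pairs. Its groups overlapped in every region. In the cerebellum it had 10.1, 16.9 and 10.7 CPM in the knockout and 16.4, 18.8 and 14.3 CPM in the wild type, with knockout replicate 2 apart from the other knockout libraries. In the olfactory bulb it had 19.9, 18.7 and 16.8 CPM in the knockout and 20.8, 16.4 and 17.7 CPM in the wild type, a log2 fold change of -0.0043 (SE 0.12). The values for the cerebellum, cortex and hippocampus were -0.40 (SE 0.20), -0.17 (SE 0.12) and -0.17 (SE 0.15). With the replicate number as a block, in which 7.27% of all genes passed and 2.18% passed as lower in the knockout, Pdgfra (-0.17, edgeR adjusted p = 0.0417) and Cspg4 (-0.19, edgeR adjusted p = 0.0492) also passed. Neither passed with libraries of equal genotype and number treated as correlated (limma adjusted p = 0.744 for Pdgfra and 0.818 for Cspg4), nor with means over regions and the replicate block (limma adjusted p = 0.147 for Pdgfra and 0.187 for Cspg4).

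Gpr17 was the only member with a positive average, 0.064 (SE 0.11, edgeR adjusted p = 0.900). It was lower in 4 of 12 equal-numbered pairs. In the cortex it had 98.4, 78.6 and 87.5 CPM in the knockout and 115.5, 68.5 and 70.5 CPM in the wild type. In the hippocampus it had 99.1, 93.9 and 74.7 CPM in the knockout and 111.3, 73.0 and 68.9 CPM in the wild type. In both regions wild-type replicate 1 was the highest library and the other 2 wild-type libraries were the lowest. By region its log2 fold change was -0.076 (SE 0.22), 0.048 (SE 0.21), 0.076 (SE 0.20) and 0.17 (SE 0.12). Gpr17 shares 188 exon bases with Lims2 on the opposite strand, and the strand setting of the counting is not given in the sources used here, so its counts are uncertain to that extent. Olig1 overlaps the antisense gene Gm15966 over 157 exon bases, which had 0 counts in all libraries.

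**Figure D3:**
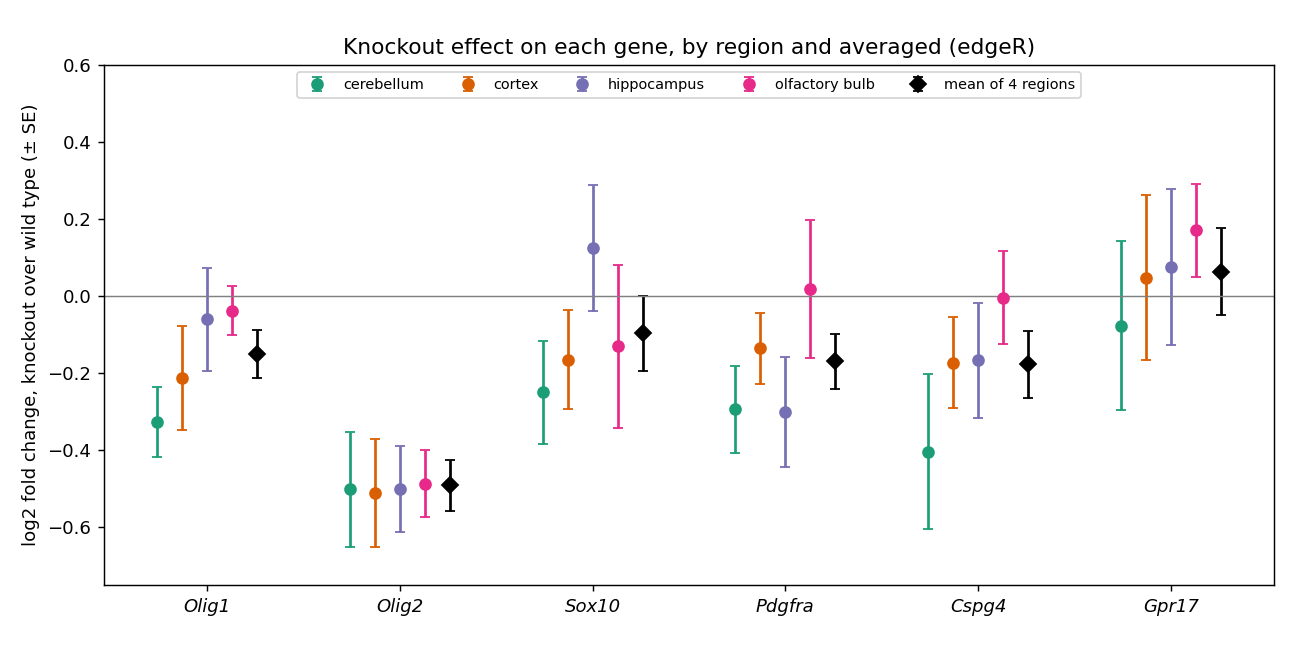
Log2 fold change, knockout over wild type, with its SE (y) for each gene (x), in each region from its own 6 libraries and averaged over the regions (black diamonds). The Olig2 values lie between -0.51 and -0.49 with SEs of 0.087 to 0.15 in single regions, and those of the other members between -0.40 and 0.17.

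As a group, 1 of the 6 members fell and 0 rose in the average over the regions. The median of their log2 fold changes was -0.16, against -0.0012 over all 17266 genes, and 5 of 6 were below 0. The median was -0.31 in the cerebellum, -0.17 in the cortex, -0.11 in the hippocampus and -0.021 in the olfactory bulb. No member passed the test for a difference of the knockout effect between regions, a test that 4 of 17266 genes (0.0232%) passed. Unadjusted, its edgeR p-values were 0.998 for Olig2, 0.331 for Olig1, 0.577 for Sox10, 0.335 for Pdgfra, 0.431 for Cspg4 and 0.876 for Gpr17.

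How did Olig2 stand relative to the other lineage genes? The ratio of Olig2 to each of them within a library does not depend on how libraries are scaled, and it was lower in the knockout for all 5. On the log2 scale, averaged over the regions, Olig2 fell by 0.34 relative to Olig1, by 0.32 relative to Pdgfra, by 0.30 relative to Cspg4, by 0.38 relative to Sox10 and by 0.58 relative to Gpr17. In an exact two-sided permutation test with genotypes exchanged within regions, adjusted over the 5 ratios, the p-values were 6.25e-05 for Olig1, Pdgfra and Gpr17, 0.00553 for Sox10 and 0.0164 for Cspg4. The smallest p the 160000 arrangements can give is 1.25e-05 before adjustment. With signs flipped within the 12 equal-numbered pairs instead, the adjusted exact p was at most 0.000977 for the 5 ratios. Those 12 include the cortex, where equal numbers were not taken as pairs. Both tests treat the 4 regions as independent, although libraries of equal genotype and number correlated across regions. Olig2 was set against the others with its fall already known, so these p-values make no allowance for that choice and are no independent support. With the choroid-plexus-rich libraries left out, the fall relative to Cspg4 was 0.19 and no longer passed (adjusted exact permutation p = 0.0973), and the other 4 ratios still passed.

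The ratios in single regions are given as descriptions, since 3 libraries against 3 cannot go below p = 0.1 in an exact permutation test. Among the regions, the ratio to Olig1 differed least between the genotypes in the cerebellum. There it averaged -2.09 ± 0.091 log2 units in the knockout and -1.93 ± 0.16 in the wild type, with overlap. It averaged -2.29 ± 0.18 in knockout and -1.98 ± 0.067 in wild-type cortex, -2.27 ± 0.11 in knockout and -1.84 ± 0.11 in wild-type hippocampus, and -2.40 ± 0.11 in knockout and -1.95 ± 0.076 in wild-type bulb (SD, n = 3 each), and in these 3 regions no knockout library reached a wild-type one. The ratio of Olig2 to Gpr17 was lower in every knockout library than in every wild-type library of its region, by 0.45 in the cerebellum, 0.59 in the cortex, 0.60 in the hippocampus and 0.67 in the bulb. The ratio to Cspg4 separated the genotypes only in the bulb, where it was lower by 0.49, and the ratio to Sox10 only in the hippocampus, where it was lower by 0.60. The ratio to Pdgfra separated them in the cerebellum, the cortex and the bulb. How often the ratio of Olig2 to any other gene would separate was not taken. The CPM of Olig2 alone separated the genotypes in all 4 regions, so these separations are not particular to the pairs named.

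**Figure D4:**
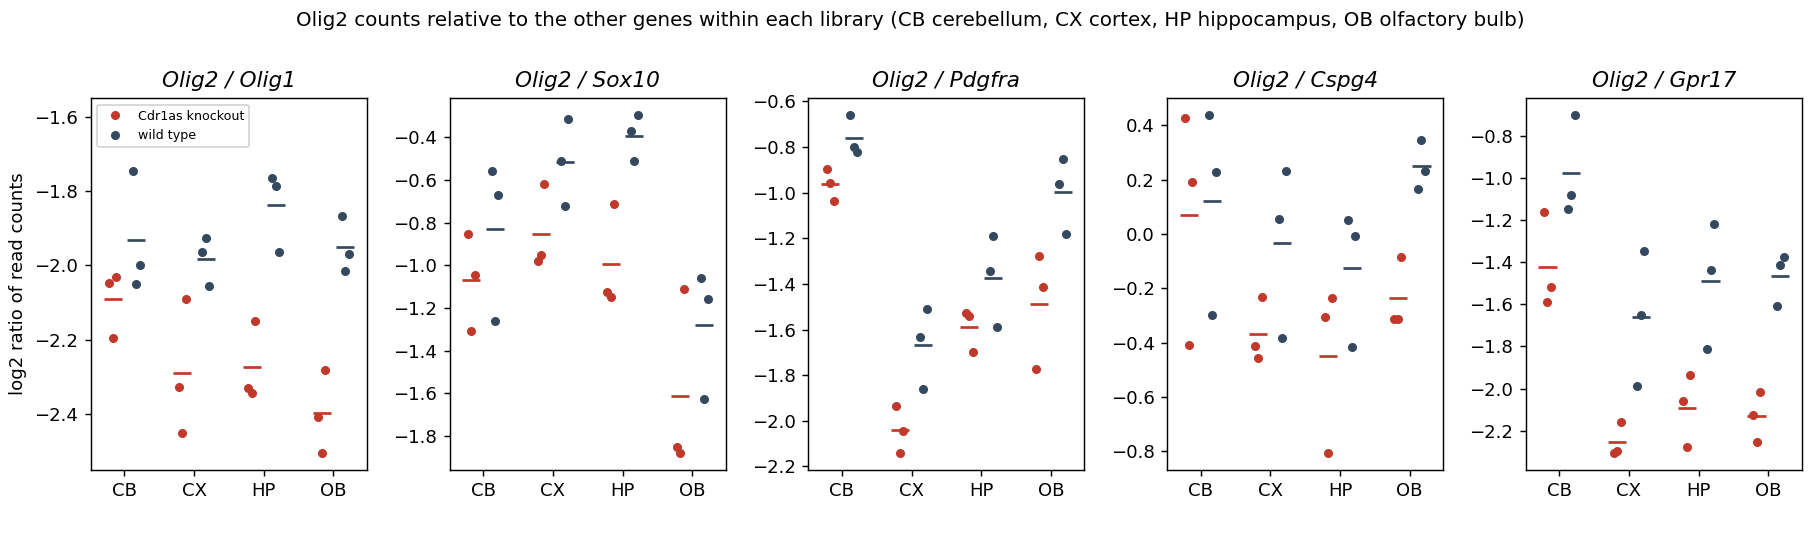
Log2 ratio of Olig2 counts to the counts of each other gene (y, own scale per panel) in every library by region (x), Cdr1as knockout in red left of wild type in blue; short lines are means of 3 libraries. The knockout mean lies below the wild-type mean in all 20 panels and regions, from 0.053 lower (Cspg4, cerebellum) to 0.67 lower (Gpr17, bulb).

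How did the members vary between the regions themselves, with knockout and wild type weighed equally? They were lowest in the cerebellum, and Pdgfra differed the most. Pdgfra averaged 27.7 ± 4.1 CPM in the cerebellum, 79.3 ± 6.5 CPM in the cortex, 69.9 ± 12.5 CPM in the hippocampus and 44.0 ± 6.8 CPM in the bulb (SD, n = 6 each). Its cerebellum level was 34.7% of that in the cortex (log2 -1.53, SE 0.10, edgeR adjusted p = 4.92e-11). Between cerebellum and cortex 69.2% of all genes passed and 34.1% were lower in the cerebellum, and of the members Gpr17 (-1.29), Cspg4 (-0.81), Olig1 (-0.67) and Olig2 (-0.53) were lower in the cerebellum too, while Sox10 (-0.27, edgeR adjusted p = 0.0931) did not pass. With the replicate number as a block Sox10 passed here too (-0.27, edgeR adjusted p = 0.0231). All 6 members were lower in the cerebellum than in the hippocampus, where 66.0% of genes passed and 32.0% were lower in the cerebellum, with Pdgfra at -1.34, Gpr17 at -1.30, Cspg4 at -1.08, Olig1 at -0.76, Olig2 at -0.71 and Sox10 at -0.46. All 6 were also lower in the cerebellum than in the bulb, where 63.0% of genes passed and 31.4% were lower in the cerebellum, from -0.87 for Gpr17 to -0.28 for Olig2. In wild-type libraries only, which are fewer, Olig1 (-0.30, edgeR adjusted p = 0.0787), Olig2 (-0.26, edgeR adjusted p = 0.174) and Cspg4 (-0.15, edgeR adjusted p = 0.390) did not pass for cerebellum over bulb, nor did Sox10 for cerebellum over hippocampus (-0.27, edgeR adjusted p = 0.141). Against such shares of all genes, a pass by itself says little about the members.

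Sox10 followed another order than the rest. It averaged 29.5 ± 4.8 CPM in the cerebellum, 35.4 ± 4.5 CPM in the cortex, 40.4 ± 6.7 CPM in the hippocampus and 51.1 ± 10.5 CPM in the olfactory bulb (SD, n = 6 each), so its highest level was in the bulb. Its log2 fold change was -0.53 for cortex over bulb (edgeR adjusted p = 0.00230) and -0.34 for hippocampus over bulb (edgeR adjusted p = 0.0405). Without the filter on low counts the hippocampus value was -0.34 and did not pass (edgeR adjusted p = 0.0566). In knockout libraries only, neither passed, at -0.56 for cortex over bulb (edgeR adjusted p = 0.0547) and -0.22 for hippocampus over bulb (edgeR adjusted p = 0.454). The other 5 members were higher in cortex and hippocampus than in the bulb, with all tests past the threshold. For cortex over bulb 62.0% of all genes passed, 30.5% as higher and 31.5% as lower in the cortex, and for hippocampus over bulb 57.7%, 27.8% as higher and 29.9% as lower in the hippocampus. For cortex over bulb they ran from 0.22 for Olig1 to 0.85 for Pdgfra, and for hippocampus over bulb from 0.32 for Olig1 to 0.72 for Cspg4. Scaling by library totals moved the median of all genes by -0.18 and -0.17 in these comparisons, and then Olig1 (0.054 and 0.18) and Gpr17 (0.26 and 0.29) passed in neither and Olig2 (0.091) did not pass for cortex over bulb. In the libraries of 1 genotype several of these calls were lost. For cortex over bulb, Olig1 (0.31, edgeR adjusted p = 0.0675), Olig2 (0.27, edgeR adjusted p = 0.160) and Gpr17 (0.49, edgeR adjusted p = 0.170) did not pass in wild-type libraries only. In knockout libraries only it was Olig1 (0.12, edgeR adjusted p = 0.389), Olig2 (0.24, edgeR adjusted p = 0.0896) and Cspg4 (0.36, edgeR adjusted p = 0.133) that did not. For hippocampus over bulb, Olig1 (0.33, edgeR adjusted p = 0.0567) and Gpr17 (0.49, edgeR adjusted p = 0.183) did not pass in wild-type libraries only. Between cortex and hippocampus, where 31.2% of all genes passed, none of the 6 did, the largest being Cspg4 at -0.27 (edgeR adjusted p = 0.101). With the replicate number as a block, Olig2 (-0.17, edgeR adjusted p = 0.0244) and Pdgfra (0.20, edgeR adjusted p = 0.0466) passed for cortex over hippocampus.

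Gpr17 averaged 35.3 ± 7.8, 86.5 ± 18.0, 86.8 ± 17.1 and 64.4 ± 8.1 CPM in cerebellum, cortex, hippocampus and bulb, and Olig1 61.4 ± 8.7, 97.1 ± 14.9, 103.4 ± 12.9 and 83.1 ± 3.4 CPM in the same order (SD, n = 6 each). For both, cortex and hippocampus lay within their spread. Olig2 averaged 15.4 ± 3.7, 22.4 ± 5.1, 25.2 ± 5.2 and 18.7 ± 3.5 CPM, and Cspg4 14.5 ± 3.5, 25.3 ± 2.8, 30.4 ± 4.5 and 18.4 ± 1.8 CPM, in that order of regions (SD, n = 6 each). Mature myelin genes, 20 summed, did not share the order of the precursor genes, with medians of 6028, 5939, 6216 and 2749 CPM in the knockout and 6744, 6079, 6515 and 2802 CPM in the wild type.

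Which other genes of the lineage moved? Of 19 further precursor genes tested in the average over the regions, 0 rose and 0 fell, with 9 above and 10 below 0 and a median log2 of -0.0019 (-0.0012 over all genes). Nkx2-2, a homeobox factor of the differentiating lineage, was at -0.28 (edgeR adjusted p = 0.175). Of 24 other transcription factors of the lineage, 1 fell and 0 rose, with 16 above 0 and a median of 0.036. It was Id2 (-0.20, SE 0.050, edgeR adjusted p = 0.0357), an inhibitor of helix-loop-helix factors. Id2 was lower in 12 of 12 equal-numbered pairs, as were 0.539% of all genes. Its call was lost in 14 of 24 runs without 1 library (highest edgeR adjusted p = 0.0729). It was also lost with libraries of equal genotype and number treated as correlated (limma adjusted p = 0.260). Of 14 genes of committed oligodendrocytes, 1 rose and 0 fell, with a median of 0.026. It was Cnksr3 (0.30, SE 0.067, edgeR adjusted p = 0.0183), a scaffold protein. Cnksr3 was lower in 1 of 12 pairs, a count whose share of all genes was not taken. It did not pass without the libraries numbered 2 (0.21, edgeR adjusted p = 0.156). Nor did it pass with libraries of equal genotype and number treated as correlated (limma adjusted p = 0.126). Of 20 mature myelin genes 0 passed, with 8 above and 12 below 0 and a median of -0.013. The smallest p were those of Opalin (0.27, edgeR adjusted p = 0.190), a membrane protein of oligodendrocytes, and Anln (-0.16, edgeR adjusted p = 0.229), an actin-binding protein.

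The growth factor side of the lineage gave 1 call. Of 6 further PDGF ligands and receptors, 1 fell and 0 rose, with 4 below 0 and a median of -0.18. It was the ligand Pdgfd (-0.36, SE 0.085, edgeR adjusted p = 0.0242), which acts mainly through the other receptor, Pdgfrb. The call was lost with libraries of equal genotype and number treated as correlated (limma adjusted p = 0.245). Pdgfd lay at -0.35, -0.39, -0.57 and -0.17 in cerebellum, cortex, hippocampus and bulb. It was lower in 12 of 12 equal-numbered pairs, as were 0.539% of all genes. Its call held in all 24 runs without 1 library (highest edgeR adjusted p = 0.0499) and was lost when any 1 region was left out (edgeR adjusted p = 0.0594 to 0.158) and without the choroid-plexus-rich libraries (-0.31, edgeR adjusted p = 0.349). Pdgfrb itself was at -0.22 (edgeR adjusted p = 0.215). Of 15 proliferation genes 0 passed, with a median of -0.043, and the smallest p were those of Mcm5 (-0.15, edgeR adjusted p = 0.335), a replication licensing factor, and Cdk1 (-0.29, edgeR adjusted p = 0.450), the mitotic kinase.

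**Figure D5:**
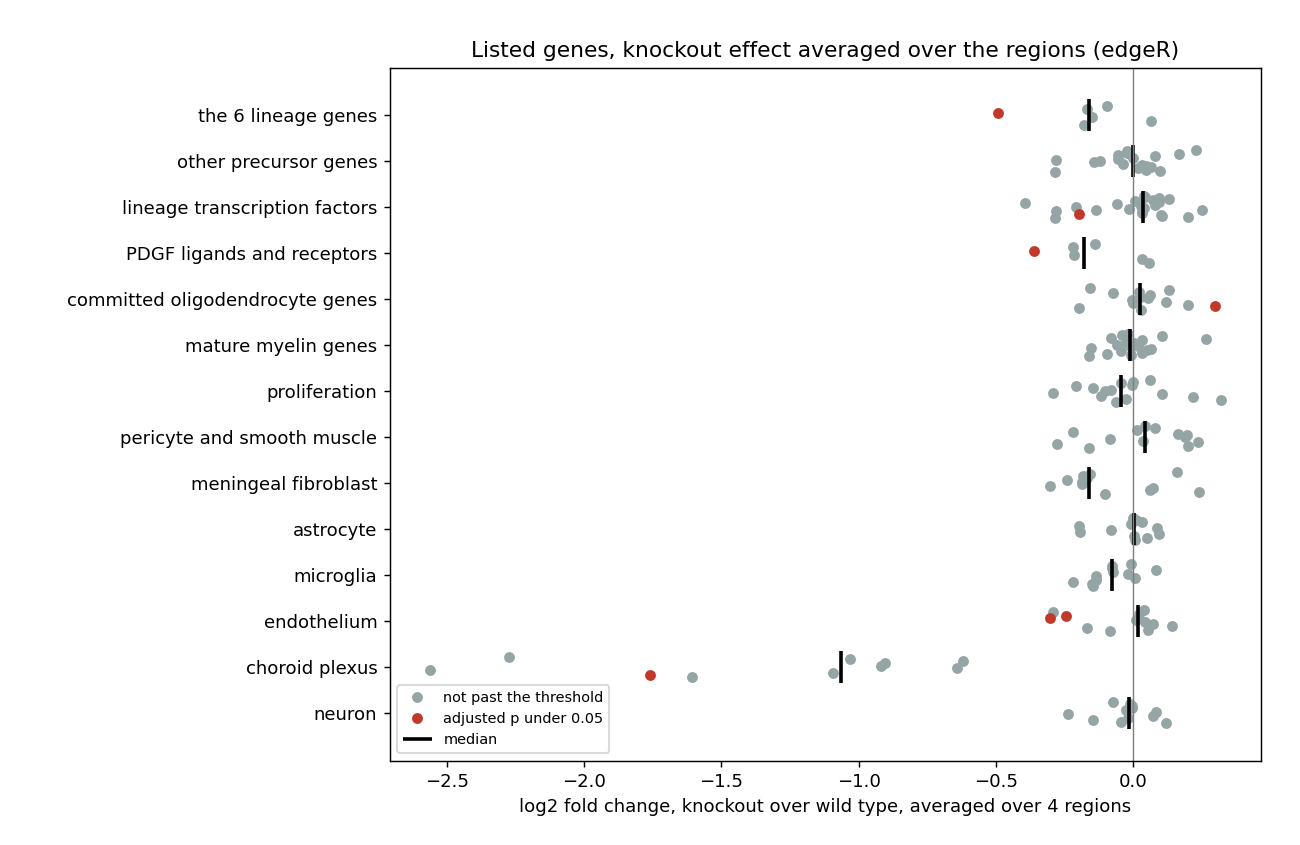
Log2 fold change, knockout over wild type, averaged over the regions (x) for the 6 lineage genes and 13 lists (y), 1 point per tested gene; red points passed an adjusted p of 0.05 in edgeR and black lines are list medians. Olig2 is the red point of the lineage genes at -0.49, and the choroid plexus genes all lie below -0.5.

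Members are shared with other cells, so the lists of those cells stand beside them. Pericyte and smooth muscle genes, which share Cspg4, had 0 of 13 past the threshold and a median of 0.043, with Pdgfrb and Kcnj8 (0.19, edgeR adjusted p = 0.220), a potassium channel, at the smallest p. Meningeal fibroblast genes, which share Pdgfra, had 0 of 12 past the threshold and a median of -0.16, with Lum (-0.24, edgeR adjusted p = 0.511) and Dcn (-0.30, edgeR adjusted p = 0.571), both matrix proteoglycans. In the hippocampus their sum was 143 to 366 CPM in the knockout and 280 to 431 CPM in the wild type. Astrocyte genes had 0 of 12 past the threshold and a median of 0.0048, with Fgfr3 at -0.19 (edgeR adjusted p = 0.0774) and Gjb6 at -0.20 (edgeR adjusted p = 0.183). Fgfr3, a growth factor receptor, passed with the replicate number as a block (edgeR adjusted p = 0.0151).

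Microglia genes had 0 of 12 past the threshold, 10 of them below 0 and a median of -0.077, with the smallest p for C1qb (-0.22, edgeR adjusted p = 0.147) and Cx3cr1 (-0.14, edgeR adjusted p = 0.381). Neuron genes had 0 of 12 past the threshold and a median of -0.015, with Gad2 (-0.14, edgeR adjusted p = 0.214; 0.0404 with the replicate number as a block) and Camk2a (0.12, edgeR adjusted p = 0.556). Of 12 endothelial genes 2 fell, the surface antigen Ly6c1 (-0.24, edgeR adjusted p = 0.00428) and the growth factor receptor Kdr (-0.30, edgeR adjusted p = 0.0475), with 7 above 0 and a median of 0.016. With the choroid-plexus-rich libraries left out Ly6c1 stood at -0.28 (edgeR adjusted p = 0.0601), and the call of Kdr was lost in 17 of 24 runs without 1 library (highest edgeR adjusted p = 0.0906). All 10 choroid plexus genes were below 0, with a median of -1.06, and Clic6, a chloride channel protein, fell (-1.76, edgeR adjusted p = 0.0361). The Clic6 call was lost in 19 of 24 such runs, and without the choroid-plexus-rich libraries it stood at -0.19 (edgeR adjusted p = 0.842). With libraries of equal genotype and number treated as correlated, Ly6c1, Kdr and Clic6 did not pass (limma adjusted p = 0.0540 for Ly6c1, 0.396 for Kdr and 0.950 for Clic6). No marker of these lists was at 0 in all libraries of a group, except Olig3 in wild-type hippocampus and both groups of the bulb. The part of these cell types in the fall of Olig2 was not tested beyond the value of -0.43 without the choroid-plexus-rich libraries.

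Which genes varied like the members? After each region's mean was removed from log2(CPM + 1), Pearson r was taken over the 24 libraries, which share region, genotype and depth, and the values are descriptions. Olig2 was followed most closely by Ccdc177 (0.89), Xlr3b (0.87) and P2ry13 (0.86), and Olig1 by Thap7 (0.91), Pde6d (0.81) and Chchd10 (0.80). Sox10 was followed by Gsn (0.87), Rhog (0.85) and Caskin2 (0.85), Pdgfra by Acss3 (0.89), Sema3d (0.85) and Miga1 (0.83), Cspg4 by Akna (0.79), Zfp775 (0.77) and Kirrel3 (0.77), and Gpr17 by Plod1 (0.91), Scd2 (0.91) and Ywhag (0.89). Members, predicted genes without a name and genes under 1 CPM on average were left out of this ranking. Among the members themselves r was highest for Olig1 with Olig2 (0.69) and Olig2 with Pdgfra (0.64), and lowest for Pdgfra with Sox10 (0.072) and Olig2 with Gpr17 (0.16).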

How the data were processed

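Each library was 1 table of raw read counts per gene, in whole numbers as deposited by the authors. Per the submitters' processing notes, bcl2fastq 2.17.1.14, STAR 2.5.1b, HTSeq 0.6.1p1 and assembly mm9 were used, and the strand setting of the counting is not given in the sources used here. Lines naming no gene (no feature 8.22% to 16.8%, ambiguous 0.576% to 0.764%, not unique 10.3% to 13.5% of counts) entered neither library sizes nor tests. Counts were filtered with filterByExpr, scaled by TMM and tested with the edgeR 4.0.16 quasi-likelihood test in R 4.3.3 on all genes, with Benjamini-Hochberg adjustment and a threshold of 0.05. Alternatives used DESeq2 1.42.0 and limma 3.58.1, and scripts used Python 3.11.15. The steps were tested on simulated data. The fits averaged the 4 regions, took each region alone, or tested the difference between regions.

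The members and lists were chosen with earlier results of these data known. Named beside the members are, per list, up to 4 genes past the threshold or else the 2 with the smallest p, and the 3 genes with the highest r per member. A gene that this rule names is not reported here. Of 20 further precursor symbols, Lhfpl3 was not matched. Over all genes, deviations of equal-numbered knockout and wild-type libraries correlated over 0.1 in every pair of 3 regions (cerebellum 0.235 to 0.546, hippocampus 0.240 to 0.482, bulb 0.166 to 0.668), so numbers were taken as pairs there by this check. Some unequal numbers correlated as well. Knockout 3 with wild type 1 gave 0.345 in the bulb and 0.237 in the hippocampus. Knockout 1 with wild type 3 gave 0.259 in the bulb and 0.192 in the cerebellum. Number 2 correlated negatively with the other numbers in these 3 regions. The check thus sets number 2 apart, but tells number 1 from number 3 poorly. Cortex pairs gave 0.338, 0.553 and -0.071, and numbers were not taken as pairs. Chi-square over degrees of freedom ran from 6.61 to 56.1 between replicates of a group, so no library was counted as a copy of another. Levels are CPM with TMM scaling. Symbols, transcripts and positions came from GENCODE M21 (GRCm38), matched by Ensembl ID. Of words of 50 bases in the members' transcripts, 16 of 9962 in Pdgfra and 0 in the other 5 genes occurred in another gene.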

Additional observations from a re-analysis of the deposited data

How the results depend on the processing

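Olig2 averaged over the regions stayed past the threshold in all alternatives run except that with 1 mean per genotype and number (-0.49, limma adjusted p = 0.429), where 0 members and 0 genes passed. With the replicate number as a block 3 members passed in place of 1 and 1256 genes in place of 462. The gene count was also 790 with DESeq2, 113 with libraries of equal genotype and number as correlated, 132 with means over regions and the replicate block, 200 without the libraries numbered 2, and 233, 217, 192 and 170 without cerebellum, cortex, hippocampus and bulb. It was 99 without the choroid-plexus-rich libraries, which left fewer libraries, and 342 to 553 when 1 library was left out. By region, 1 member passed in the cortex with the replicate block and 1 in the bulb with DESeq2, in place of 0. The cause of these moves was not tested.

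Directions turned in comparisons where nothing passed. Without the choroid-plexus-rich libraries, Olig1 in the hippocampus was 0.12, Pdgfra there 0.025 and Gpr17 in the cerebellum 0.24. That left wild-type replicate 2 alone in the hippocampus and wild-type replicate 3 alone in the cerebellum. Without the libraries numbered 2, Gpr17 was -0.046 on average, -0.0035 in the cortex and -0.054 in the hippocampus. In the bulb, Pdgfra was -0.013 with library totals, and Cspg4 was 0.015 with 1 shared spread, 0.0028 without a filter, 0.011 with limma-voom, 0.0020 with DESeq2 and 0.0022 with the replicate block. For cortex over hippocampus Gpr17 was 0.0046 in wild-type libraries only. Leaving out 1 library turned Olig1 in the hippocampus (-0.19 to 0.039), Pdgfra (-0.16 to 0.16) and Cspg4 (-0.094 to 0.11) in the bulb, Sox10 in the hippocampus (-0.039 to 0.29) and bulb (-0.27 to 0.065), and Gpr17 in the cerebellum (-0.23 to 0.21), cortex (-0.070 to 0.34) and hippocampus (-0.051 to 0.33). The 3 libraries a group limit what a region alone can show.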
